A study of Mus musculus with 8 samples.

Results

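The 10 genes described here are direct targets of YAP, the transcriptional coactivator that the Hippo pathway restrains: Ccn1, Ccn2, Amotl2, Axl, Ajuba, Crim1, Ptpn14, Nuak2, Asap1 and Myof. They were chosen by name as known targets, with earlier results of these data known, and are 10 of the 32285 genes in the tables. They were followed across 4 groups of mouse tongue epithelium profiled by droplet single cell RNA sequencing, in epithelial cells only. An epithelial cell was one with at least 0.5% of its UMIs (unique molecular identifiers, which count original RNA molecules) from the keratin genes Krt5, Krt14, Krt15, Krt13 and Krt6a and with no UMI of the leukocyte gene Ptprc. Of 42550 cells in the files, 25199 lay within the limits on genes, UMIs and mitochondrial share, and 12957 of these were epithelial.

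All mice carried Krt14-CreERT and LSL-rtTA, in which tamoxifen injected into the tongue releases Cre in Krt14-expressing basal cells and Cre in turn permits expression of the doxycycline-dependent activator rtTA. According to the study's methods all also carried a tetON_H2B-GFP reporter and were fed doxycycline. The mice were littermates, 8 to 16 weeks old, in groups balanced for age and sex. The control group N had no further transgene, group E had tetON_E6-E7 (the HPV16 oncogenes, which disable p53 and RB), group Y had tetON_YAP1S127A (a YAP that LATS kinases cannot switch off at its main site) and group EY had both. Each group had 2 libraries, taken at day 15 after induction and named here by group and number (N1, N2 and so on); the label of N2 carries 2 animal numbers, so that library may pool 2 animals.

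YAP has no DNA-binding domain of its own. When Hippo signalling is low, YAP enters the nucleus and binds TEAD factors, which recognise the core motif GGAATG in promoters and enhancers. In stratified epithelium nuclear YAP is a feature of basal progenitors, and several of its targets encode proteins that act back on YAP: Amotl2, Ptpn14 and Lats2 restrain it, whereas Ajuba inhibits the LATS kinases that restrain it.

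To show what sequence lies at the start of these genes, the 250 bases before the annotated transcription start (RefSeq, build GRCm38.p6) were searched for GGAATG on either strand, where CATTCC is the same motif read from the other strand. Of the 10 genes, 7 had an entry in the sequence table and 6 of the 7 held at least 1 motif, against 12.6% of all 32851 promoters of this length. Ccn2, Nuak2 and Asap1 had no entry. The 4 upstream regions that follow belong to genes whose RNA was higher in libraries with YAP1S127A. Bases run 5′ to 3′ on the gene's own strand, with the motif in capitals.

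Ccn1, chr3:145649986-145650235, minus strand: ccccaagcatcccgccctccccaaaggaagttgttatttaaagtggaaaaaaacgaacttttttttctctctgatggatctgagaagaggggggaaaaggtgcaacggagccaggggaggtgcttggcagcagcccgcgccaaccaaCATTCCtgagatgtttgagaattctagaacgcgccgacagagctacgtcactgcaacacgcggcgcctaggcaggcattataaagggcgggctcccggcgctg
Axl, chr7:25788734-25788983, minus strand: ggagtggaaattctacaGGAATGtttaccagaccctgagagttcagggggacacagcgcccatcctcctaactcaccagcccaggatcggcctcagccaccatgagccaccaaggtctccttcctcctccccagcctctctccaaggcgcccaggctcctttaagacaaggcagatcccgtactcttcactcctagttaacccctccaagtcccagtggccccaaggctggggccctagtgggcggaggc
Ajuba, chr14:54577662-54577911, minus strand: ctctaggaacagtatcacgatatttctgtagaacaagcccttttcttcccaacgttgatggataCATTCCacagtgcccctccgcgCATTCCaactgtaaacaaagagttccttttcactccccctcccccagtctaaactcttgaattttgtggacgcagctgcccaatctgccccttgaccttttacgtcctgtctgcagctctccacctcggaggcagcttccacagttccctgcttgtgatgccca
Crim1, chr17:78199998-78200247, plus strand: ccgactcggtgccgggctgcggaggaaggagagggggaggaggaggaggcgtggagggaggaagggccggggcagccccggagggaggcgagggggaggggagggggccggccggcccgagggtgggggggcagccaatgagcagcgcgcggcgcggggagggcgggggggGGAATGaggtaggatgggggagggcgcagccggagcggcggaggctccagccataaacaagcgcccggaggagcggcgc

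For Amotl2 only the 30 bases around the motif are shown, since part of its upstream region lies in an exon of a longer annotated transcript.

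Amotl2, chr9:102717727-102717756, plus strand: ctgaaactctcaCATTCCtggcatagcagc

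Counted from the transcription start, with -1 as the last base before it, the first motif base lay at -65 in Amotl2, -79 in Crim1, -103 in Ccn1, -146 in Ptpn14 and -233 in Axl. Ajuba held 2 motifs, at -186 and -164, where 1.02% of all promoters held 2 or more. No match was found in the Myof window, a statement about these letters in this window only. A match describes the sequence and is not evidence that TEAD binds there.

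Depth and purity differed between libraries. Epithelial cells numbered 170 in EY1, 415 in N2, 553 in E2 and 1001 to 4055 in the others, and their UMIs summed to between 2454816 in EY1 and 55154619 in E1. The upper limits on genes and UMIs removed unequal parts of the libraries. Without these limits the cells numbered 481 in EY1, 741 in N2, 944 in E2 and 1588 in Y2. In the others they numbered 3521 in N1, 4185 in E1, 1897 in Y1 and 2462 in EY2, where 3447, 4055, 1289 and 2027 were kept. Levels below are UMIs summed over the epithelial cells of a library and scaled to a common library total (CPM) after TMM, edgeR's correction for library composition. Each library thus counts once, and levels rank libraries within a gene, not genes. Sums over marker lists, levels in immune cells, by keratin class and by Yap1 UMI are CPM without TMM. Ptprc was 0 by the gate, yet the summed level of 12 other immune markers, all detected, was 41.6 to 52.2 CPM in N and E and 84.6 to 276 CPM in Y and EY. The 6 fibroblast markers summed to 725 to 1227 CPM in N and E and 28.3 to 805 CPM in Y and EY, nearly all of it Dcn, while Col1a1 was at most 2.04 CPM. Of 5 endothelial markers Cdh5, Cldn5 and Emcn were at 0. The 8 libraries shared 2 to 19 cell barcodes per pair, of which 0 to 5 were epithelial.

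Yap1 itself gave a check of the YAP1S127A labels. It stood at 34.5 and 41.7 CPM in N, 31.5 and 46.1 in E, 215 and 447 in Y, and 216 and 174 in EY. Every library with the transgene was above every library without it, and Y2 was far above the other 3. Across the design, with 4 libraries carrying YAP1S127A and 4 not, Yap1 was 6.62-fold higher (log2 difference 2.73 ± 0.29 SE, adjusted p = 0.00301 in edgeR's quasi-likelihood test, 13555 genes tested). The study's supplement prints the transgene's coding sequence and transgene-specific primers named for human YAP1. For its own single cell counts of the transgene, the study added the transgene sequences to the mouse genome. Whether transgene transcripts enter the mouse Yap1 count used here depends on the 3′ end of the transgene, which is not known here. This fold may thus be of endogenous, transgene or both kinds of transcript. N and E overlapped, as Yap1 does not bear on the E6-E7 labels, which were not checked.

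In that comparison, called the YAP effect, 5 of the 10 targets rose: Amotl2, Axl, Ccn1, Crim1 and Ajuba. The other 5 did not pass the test, and no target fell. Among all genes tested 8.98% passed, of which 5.26% rose and 3.72% fell, as shares of all tested. At an unadjusted p under 0.05, Ccn2 joined these for 6 of 10, against 31.4% of all genes. The median log2 difference was 0.63 over the 10 targets and -0.03 over all genes. Since the 10 were chosen with earlier results of these data known, these contrasts with all genes are a description only. In 4 targets (Ccn1, Amotl2, Axl and Ajuba) all 4 libraries with YAP1S127A lay above all 4 without, a pattern seen upward in 9.41% of all genes. The plot of levels by library shows each gene's 8 values.

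**Figure D1:**
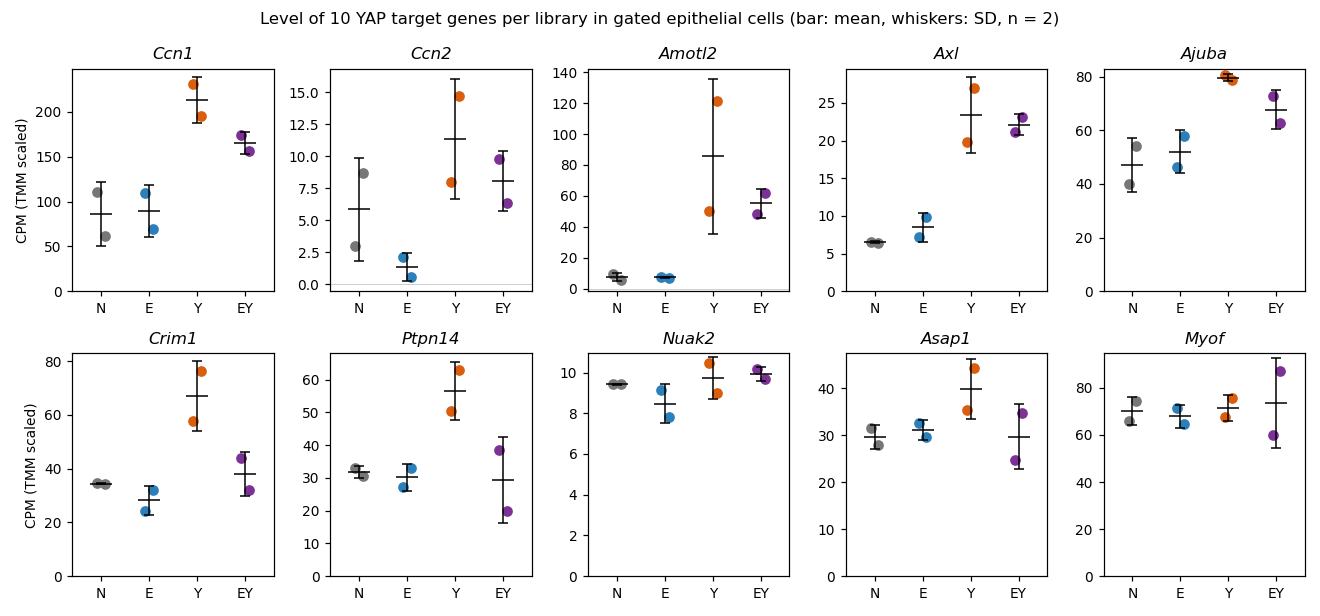
CPM (TMM scaled, linear axis) of each of the 10 targets in the 2 libraries of each group, with the mean as a bar and the SD as whiskers (n = 2). Amotl2 and Axl separate the libraries with YAP1S127A from those without, Crim1 and Ptpn14 stand highest in Y, and Nuak2 lies at one level in all 4 groups. Myof has similar means in the 4 groups, with its 2 EY libraries far apart.

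The secreted targets were Ccn1 and Ccn2, matricellular proteins that bind integrins (genes at chr3:145646976-145649981 and chr10:24595442-24598683, annotation build GRCm38). Ccn1 measured 111 and 61.2 CPM in N, 110 and 69.0 in E, 231 and 195 in Y, and 174 and 157 in EY. The ranges of N and E nearly coincided, both Y libraries were highest, and both EY libraries fell between. Ccn1 was 2.13-fold higher with YAP (log2 1.09 ± 0.22 SE, adjusted p = 0.0260), a call lost without E2, EY1 or Y2, where adjusted p was 0.0733, 0.0653 and 0.0684. In Y alone against N it was 2.47-fold higher, with adjusted p = 0.144.

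Ccn1 is also an immediate early gene, of the kind that tissue dissociation induces. The summed level of 16 other immediate early and dissociation genes was 7655 to 12883 CPM in N and E and 4434 to 8815 CPM in Y and EY (not TMM scaled), ranges that overlap since Y1 lay above N2. Both Ccn1 and this sum had higher means in Y than in EY. Of the 16, Egr1 and Nr4a1 fell with YAP and Ier3 rose. Within the libraries without YAP, N1 and E1 were above N2 and E2 both in Ccn1 and in this sum; their part in the Ccn1 difference was not tested.

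Ccn2 rested on 1083 UMIs in all 8 libraries. It measured 2.98 and 8.70 CPM in N, 2.12 and 0.558 in E, 8.01 and 14.7 in Y, and 9.75 and 6.38 in EY. N2 lay among the libraries with YAP, and the 3 other libraries without YAP lay below all of them. Of the 73 Ccn2 UMIs in N2, 50 came from 3 cells and 62 from 18 cells rich in the gland or duct genes Wfdc18, Msln, Psca and Ltf. The YAP effect on Ccn2 was 3.15-fold (log2 1.66 ± 0.52 SE) and did not pass with all cells (adjusted p = 0.0760). With such gland- or duct-like cells left out of every library it was 2.46 on the log2 scale and passed (adjusted p = 0.0108), as did 1470 of the 13480 genes tested, an alternative chosen after seeing the data.

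The targets that feed back on YAP were Amotl2, Ajuba and Ptpn14. Amotl2, an angiomotin-family protein that holds YAP at junctions (gene at chr9:102716672-102733418), had the largest fold of the 10. Its level was 9.22 and 5.6 CPM in N, 7.54 and 7.01 in E, 50.1 and 121 in Y, and 48.3 and 61.9 in EY. The libraries with and without YAP did not overlap, and within the former Y2 stood alone while Y1 lay between EY1 and EY2. Amotl2 was 9.25-fold higher with YAP (log2 3.21 ± 0.31 SE, adjusted p = 0.00249), and it passed in all 16 alternatives tried.

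Ajuba encodes a LIM protein that inhibits LATS kinases (chr14:54567472-54577558). It measured 40.0 and 54.1 CPM in N, 46.3 and 57.7 in E, 80.4 and 78.8 in Y, and 72.7 and 62.5 in EY. Every library with YAP was above every one without, and the closest were EY2 and E2. The YAP effect was 1.49-fold (log2 0.57 ± 0.15 SE, adjusted p = 0.0496), so close to the threshold that leaving out any one of N1, N2, E1, Y1, Y2 or EY1 ended the call (adjusted p up to 0.136).

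Ptpn14, a tyrosine phosphatase that binds YAP and whose human protein is bound by HPV E7 proteins (chr1:189728268-189876695), did not separate by YAP alone. It measured 33.1 and 30.6 CPM in N, 27.3 and 33.1 in E, 50.4 and 62.9 in Y, and 38.6 and 19.97 in EY. Both Y libraries were above all others, whereas EY2 was the lowest of the 8. The YAP effect was 0.38 on the log2 scale (± 0.26 SE, adjusted p = 0.328).

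At the cell surface, Axl is the receptor tyrosine kinase for Gas6 (chr7:25757273-25788705). It measured 6.60 and 6.43 CPM in N, 7.14 and 9.80 in E, 19.8 and 27.0 in Y, and 21.1 and 23.1 in EY. The libraries with YAP were all higher, and the EY libraries lay inside the range of Y. Axl was 3.08-fold higher with YAP (log2 1.62 ± 0.18 SE, adjusted p = 0.00311) and passed in all 16 alternatives.

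Immune cells in these libraries contained Axl as well, at 10.8 to 66.6 CPM in the immune gate. Among epithelial cells with no UMI of any immune, fibroblast, endothelial or muscle marker, the YAP effect on Axl was 1.65 on the log2 scale (adjusted p = 0.00493) and that on Amotl2 was 3.03 (adjusted p = 0.00225). In those same cells Ccn1 (0.95), Ajuba (0.81) and Ccn2 (2.004) passed, and Crim1 (0.75) did not, where 1535 of the 10992 genes tested passed. This selection left 26 cells in EY1 and 65 in N2.

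Crim1 is a membrane protein with cysteine-rich repeats that bind BMPs (chr17:78200248-78376592). It measured 34.6 and 34.2 CPM in N, 24.2 and 32.0 in E, 57.8 and 76.2 in Y, and 43.9 and 32.2 in EY. EY2 lay inside the range of the libraries without YAP, and both Y libraries lay above everything else. The YAP effect was 1.62-fold (log2 0.70 ± 0.18 SE, adjusted p = 0.0490), a call lost without N1, N2, E1, Y2 or EY1 (adjusted p up to 0.131).

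The remaining 3 targets were the AMPK-related kinase Nuak2 (chr1:132316126-132333488), the Arf GTPase-activating protein Asap1 (chr15:64086857-64382919) and the ferlin Myof, a protein of membrane repair and fusion (chr19:37899036-38043577). Nuak2 stayed between 7.81 and 10.5 CPM in all 8 libraries, with a YAP effect of 1.09-fold (log2 0.13 ± 0.14 SE, adjusted p = 0.553). Asap1 ranged from 24.8 CPM in EY1 to 44.4 in Y2, with a YAP effect of 0.20 ± 0.16 SE on the log2 scale (adjusted p = 0.423). Myof ranged from 60.1 CPM in EY1 to 87.1 in EY2, and its YAP effect was 1.06-fold (log2 0.08 ± 0.13 SE, adjusted p = 0.708). For Myof the 2 EY libraries spanned the range of all 8, and for Asap1 EY1 was the lowest while EY2 lay just below Y1. The YAP effects on Asap1 and on Myof each passed in 1 of 16 alternatives.

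Taken singly against controls, the YAP groups called fewer targets. In Y against N, Amotl2 (log2 3.48 ± 0.44 SE) and Axl (1.84 ± 0.24 SE) rose, both with adjusted p = 0.0370, where 0.457% of all genes passed (0.384% higher and 0.0738% lower). At an unadjusted p under 0.05 there were 6 of 10, against 12.2% of all genes. All 10 targets had a positive sign, with a median of 0.89 against -0.00 over all genes. Both calls ended on leaving out any single library other than Y1, with adjusted p of 0.0504 to 0.307. In EY against N, Amotl2 (2.86 ± 0.44 SE, adjusted p = 0.0116) and Axl (1.77 ± 0.24 SE, adjusted p = 0.00931) rose, where 18.8% of all genes passed (9.31% higher and 9.5% lower). At an unadjusted p under 0.05 there were 4 of 10, against 39% of all genes. Here 9 of 10 signs were positive and the median was 0.29 against -0.05 over all genes; without N1, N2 or EY2 both calls ended (adjusted p 0.0571 to 0.0819). Both comparisons share the N libraries.

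**Figure D2:**
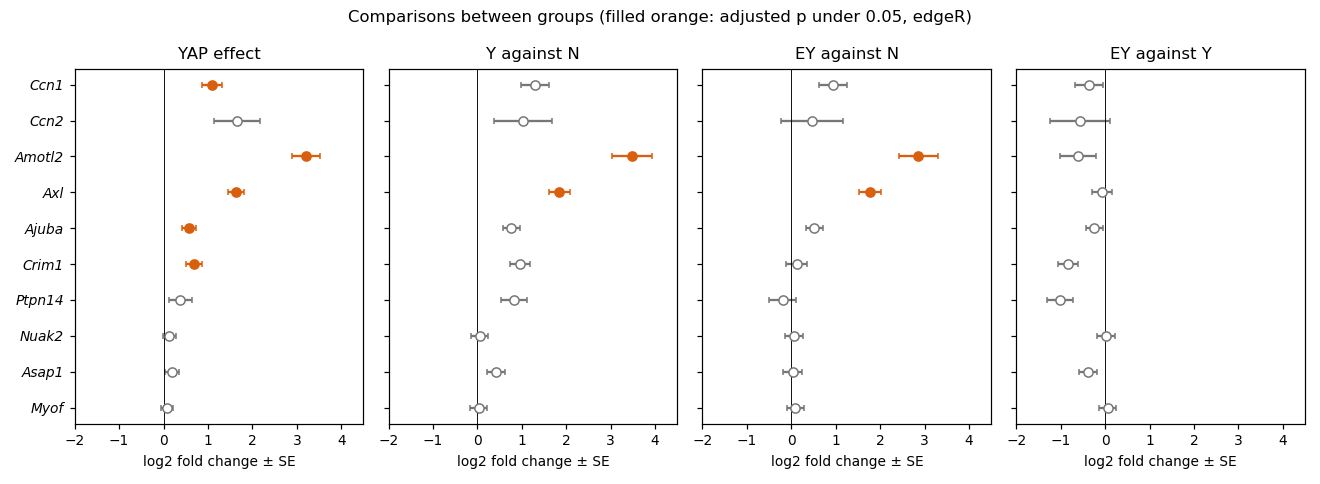
Log2 fold change ± SE of each target in 4 comparisons, with filled orange points where adjusted p was under 0.05. In EY against Y the points for Crim1 and Ptpn14 lie farthest below 0 and none is filled.

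Whether the response was smaller in EY than in Y was asked directly, with little power. In simulated data this comparison recovered 8% of 2-fold and 74% of 4-fold changes. The lack of a call thus does not decide about differences near 2-fold. In EY against Y none of the 10 targets passed, where 0.0443% of all genes (6 of 13555) did, 0.0221% higher and 0.0221% lower. Crim1 and Ptpn14 had unadjusted p below 0.05, as had 23.4% of all genes. Signs were negative for 8 of 10, with a median of -0.38 against -0.05 over all genes. In 5 targets (Ccn1, Ajuba, Crim1, Ptpn14 and Asap1) both EY libraries lay below both Y libraries, which 28.2% of all genes showed.

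How far EY stood from Y varied among the targets, though none passed with all libraries in edgeR and genes were not tested against each other. Ptpn14 was lowest relative to Y, at 0.493-fold (log2 -1.02 ± 0.30 SE, adjusted p = 0.112), and Crim1 next, at 0.559-fold (log2 -0.84 ± 0.23 SE, adjusted p = 0.1005). Their mean levels in EY, 29.3 ± 13.2 CPM for Ptpn14 and 38.1 ± 8.24 CPM for Crim1 (SD, n = 2), were near those of N (31.9 ± 1.78 and 34.4 ± 0.310). Axl and Myof differed least from Y beside Nuak2, with log2 differences of -0.07 ± 0.23 and 0.06 ± 0.19 SE. Ptpn14 passed when EY1 was left out (-1.48, adjusted p = 0.0257), as did 1456 of the 14254 genes tested; EY2 is then assumed to vary like the libraries of the other groups. Both Crim1 and Ptpn14 passed in DESeq2 (adjusted p = 0.0460 and 0.0405), as did 873 of 13555 genes.

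Leaving out Y2, the library with the highest Yap1 level, moved the differences between EY and Y. Yap1 itself was 0.587-fold in EY relative to Y (log2 -0.77 ± 0.35 SE, adjusted p = 0.230). Without Y2 the Yap1 difference was -0.10, that of Amotl2 turned from -0.62 to 0.20 and that of Axl from -0.07 to 0.21. Over all 8 fits that left out 1 library, Amotl2 ran from -1.12 to 0.20 and Axl from -0.27 to 0.21. Any part of the Yap1 level in these differences was not tested. Crim1 and Ptpn14 remained negative without Y2, at -0.58 and -0.80, with adjusted p of 0.291 and 0.301. The plot of targets beside Yap1 shows EY1 and Y1 at one Yap1 level and nearly one Amotl2 level, with EY2 slightly lower in Yap1 and higher in Amotl2.

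**Figure D3:**
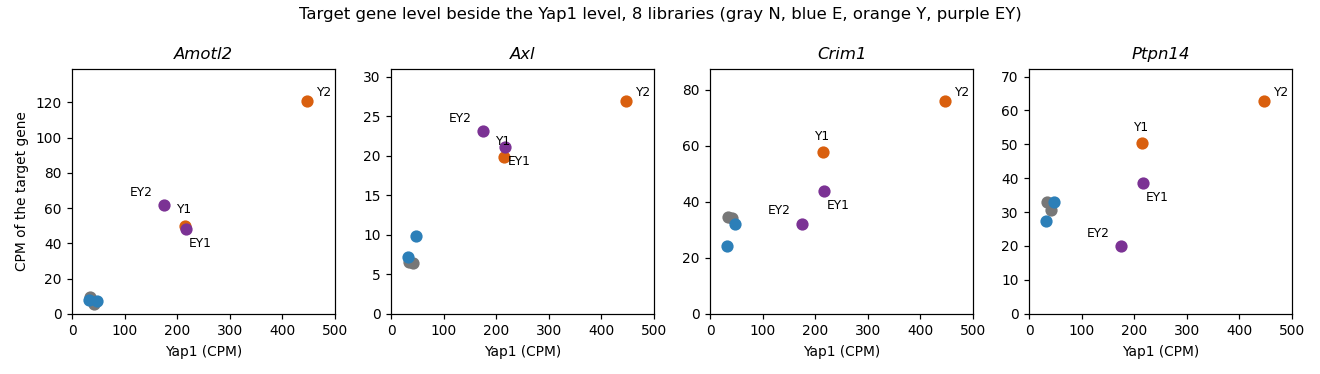
CPM of 4 targets (linear axes) against the CPM of Yap1 in the same library, 1 point per library. For Amotl2 and Axl, Y1, EY1 and EY2 form 1 cluster and Y2 lies farther out, whereas for Crim1 and Ptpn14 both EY points lie below Y1.

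The interaction asks whether YAP acted differently in mice with and without E6-E7. It called no target and none of the 13555 genes in edgeR (0% called). In simulated data it recovered 0% of 2-fold and 28% of 4-fold changes, so it cannot show that the responses were equal. No target had an unadjusted p under 0.05, against 11.5% of all genes, and DESeq2 called none of the 10 and 89 of all genes. Signs were negative for 7 of 10, and the value farthest below 0 was that of Ptpn14 (log2 -0.94 ± 0.41 SE, adjusted p = 0.441).

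In E against N, which asks what E6-E7 did alone, no target passed in edgeR (0.243% of all genes did, 0.236% higher and 0.00738% lower) or in DESeq2. At an unadjusted p under 0.05 there was 1, against 3.73% of all genes: Ccn2 at 0.271-fold, where N2 held the few cells described above. Over both YAP states the E6-E7 effect called none of the 10 in edgeR (0.406% of all genes) or DESeq2. Crim1 (log2 -0.56 ± 0.18 SE, adjusted p = 0.367) and Ccn2 (-1.23 ± 0.52 SE, adjusted p = 0.428) had unadjusted p under 0.05, as had 11.5% of all genes.

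To ask whether the levels came from few or many cells, each cell was thinned to 2000 UMIs. The median depth before thinning was 12575 to 23570 UMIs in epithelial and 3372.5 to 10871 UMIs in immune cells, the latter defined by at least 1 Ptprc UMI and under 0.5% keratin UMIs. Thinning left out 0 to 2 epithelial and 1 to 17 immune cells per library. Amotl2 was found in 1.83% and 1.93% of epithelial cells in N, 1.31% and 1.27% in E, 9.94% and 18.8% in Y, and 5.92% and 10.2% in EY. The exact 95% binomial intervals, which cover counting error only, reached at most 3.76% in N and E, and began at 8.36% and 16.4% in the Y libraries and at 2.87% and 8.88% in those of EY. In immune cells its share was 0.0747% to 0.662% in 7 libraries, and in E1 it was 0 of 643 cells, for which 3 counts would be 0.467% and the exact interval ends at 0.572% of cells with a UMI. All were below every epithelial value.

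Ccn1 was found in 7.23% to 17.5% of cells without and 18.3% to 28.1% with YAP, against 0.224% to 1.78% of immune cells. The lowest share with YAP was that of EY1 (interval 12.8% to 25.0%, which takes in N1 and E1), and at 1000 UMIs EY1 (8.82%) lay below N1 (9.40%) and E1 (9.99%). Ajuba was found in 8.53% to 10.1% without and 11.2% to 16.9% with YAP, and in at most 1.19% of immune cells. Axl was found in 1.08% to 2.17% without and 2.96% to 6.69% with YAP, but in 2.52% to 9.49% of immune cells, so its share alone does not mark epithelial expression. Asap1 and Nuak2 were likewise as frequent in immune as in epithelial cells. Crim1 was found in 0.713% to 5.98% of immune and 5.08% to 13.5% of epithelial cells, ranges that overlap. Ccn2 in E2 was found in 0.218% of immune and 0.181% of epithelial cells. Cells holding at least 2 of the 10 targets made up 10.8% to 14.2% of cells without and 17.2% to 32.5% with YAP. Shares from EY1 rest on 169 cells and are the least precise.

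**Figure D4:**
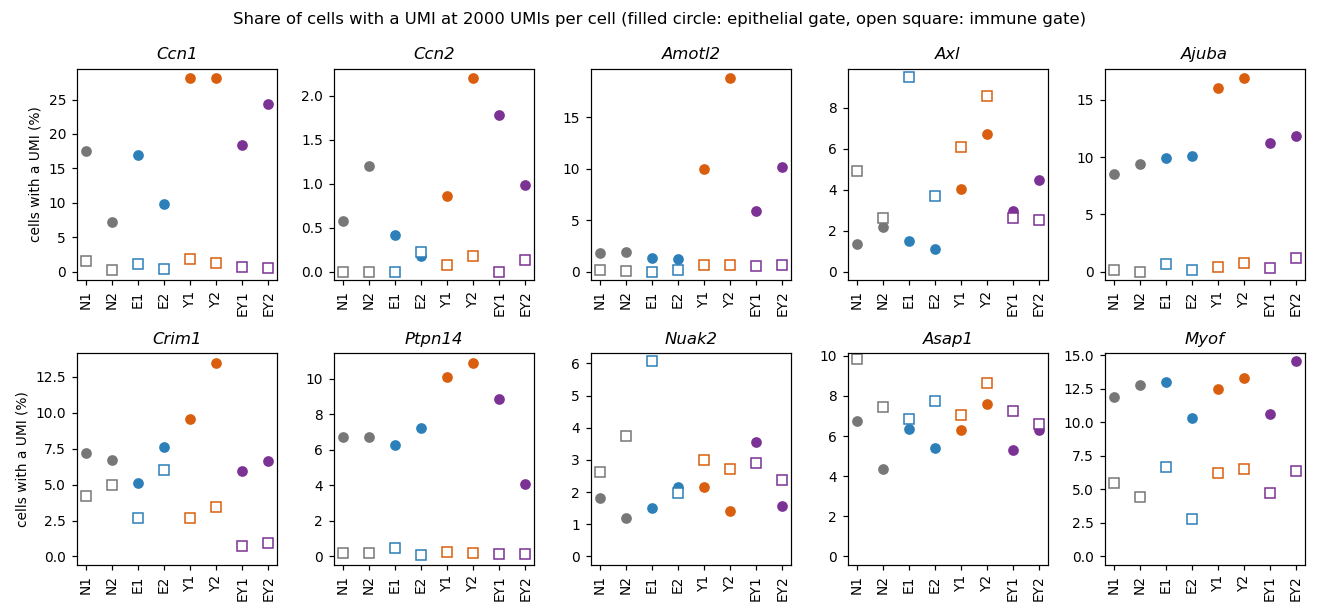
Percent of cells with at least 1 UMI of each target after thinning to 2000 UMIs per cell, by library, in epithelial cells (filled circles) and immune cells (open squares). Amotl2 and Ajuba shares with YAP lie above both the libraries without YAP and the immune cells. The Ccn1 share of EY1 is close to those of N1 and E1. Axl, Nuak2, Asap1, Crim1 and Ccn2 shares overlap those of immune cells.

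Amotl2 was also compared between cells with and without a Yap1 UMI in the thinned data, as a description of cells that share a library. In Y2, Amotl2 stood at 148 CPM in the 513 cells with a Yap1 UMI and 82.0 CPM in the 488 without. In EY2 these values were 70.8 and 48.0 CPM, whereas in Y1 they were 52.6 and 57.6 CPM. In EY1 they were 70.0 and 21.0 CPM, on 7 and 5 UMIs. Basal keratin cells alone (defined below), thinned in a separate draw, held 52.6 and 41.5 CPM in Y1. Those of EY1 held 54.3 and 46.7 CPM, those of Y2 148 and 101 CPM, and those of EY2 73.0 and 49.0 CPM. The order in Y1 thus depended on the cells taken and the draw. At 2000 UMIs a cell without a Yap1 UMI may still express Yap1, so both classes hold cells of either kind.

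The epithelium is layered, and the targets were next compared between cells with more UMIs of the basal keratins Krt5, Krt14 and Krt15 than of the suprabasal keratins Krt13 and Krt4, and the remaining cells. This comparison, added after seeing the data, used the 7 libraries with at least 20 suprabasal keratin cells (EY1 had 16) and kept each library as a block. Other basal genes were low in EY2, where 95.6% of cells were basal by keratin. Over all its epithelial cells Krt14 was the highest of the libraries (11230 CPM). Krt15 (552 CPM), Col17a1 (82.0) and Trp63 (60.3) were the lowest, against at least 2181, 298 and 126 CPM elsewhere. Whether the keratin classes are the same layers in EY2 was not tested. Of the 10 targets 6 passed, where 31.3% of the 12124 genes tested did. Ccn1 (log2 -1.55 ± 0.29 SE, adjusted p = 0.00172), Crim1 (-1.13 ± 0.16 SE, adjusted p = 0.000210), Ajuba (-0.80 ± 0.16 SE, adjusted p = 0.00259), Ptpn14 (-0.42 ± 0.13 SE, adjusted p = 0.0274) and Myof (-0.40 ± 0.12 SE, adjusted p = 0.0245) were lower in suprabasal cells. Nuak2 was higher there (1.16 ± 0.14 SE, adjusted p = 8.9e-05), and Amotl2 (0.05) and Axl (0.01) did not differ beyond their SE of 0.12 and 0.11.

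Nuak2, level across the groups, thus varied with keratin class. In basal keratin cells it ranged from 7.53 to 8.95 CPM in the 7 libraries and in suprabasal keratin cells from 12.8 to 25.0 CPM (scaled to the UMIs of those cells), with no overlap. Amotl2 in Y2 was 119 CPM in basal and 139 CPM in suprabasal keratin cells, and in N1 9.37 and 9.39 CPM. The Ptpn14 call ended without N1, E1, E2 or Y1 (adjusted p up to 0.109), and that of Myof without Y1, Y2 or EY2 (adjusted p up to 0.0723).

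The drop of Ccn1 from basal to suprabasal keratin cells was smaller in libraries with YAP. Basal cells held 130 and 61.4 CPM in the N libraries and 130 and 76.0 in those of E, and suprabasal cells of the same libraries 24.0, 2.58, 23.8 and 6.40 CPM, the values of N2 and E2 resting on 1 and 5 UMIs. With YAP, basal cells held 242 CPM in Y1, 211 in Y2 and 150 in EY2, and suprabasal cells 106, 119 and 126 CPM. In EY1, which was not in the fit, suprabasal cells held 43.1 CPM on 6 UMIs, and basal cells 183 CPM. The 8 suprabasal levels did not overlap between libraries with and without YAP, and EY1 lay nearest to N1 and E1.

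The fitted log2 difference was -2.53 ± 0.19 SE without YAP, where 23.9% of all genes passed, and -0.72 ± 0.17 SE with YAP, where 10.7% passed. The difference between these passed the test (1.81 ± 0.26 SE, adjusted p = 0.0337), 1 of 8 genes to do so (0.066% of those tested). The call ended without N1, E2, Y2 or EY2, with adjusted p of 0.0689 to 0.118, and held without gland- or duct-like cells (1.75, adjusted p = 0.00126). Ajuba (0.92, adjusted p = 0.199) and Crim1 (0.78, adjusted p = 0.411) had the same sign and did not pass, and neither did Asap1 (0.89) or Ptpn14 (0.61). Without gland- or duct-like cells Ajuba passed (adjusted p = 0.0369). Myof (-0.60, adjusted p = 0.411) and Ccn2 (-0.61) had the opposite sign, and Amotl2 (0.01), Axl (0.14) and Nuak2 (0.05) lay near 0.

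**Figure D5:**
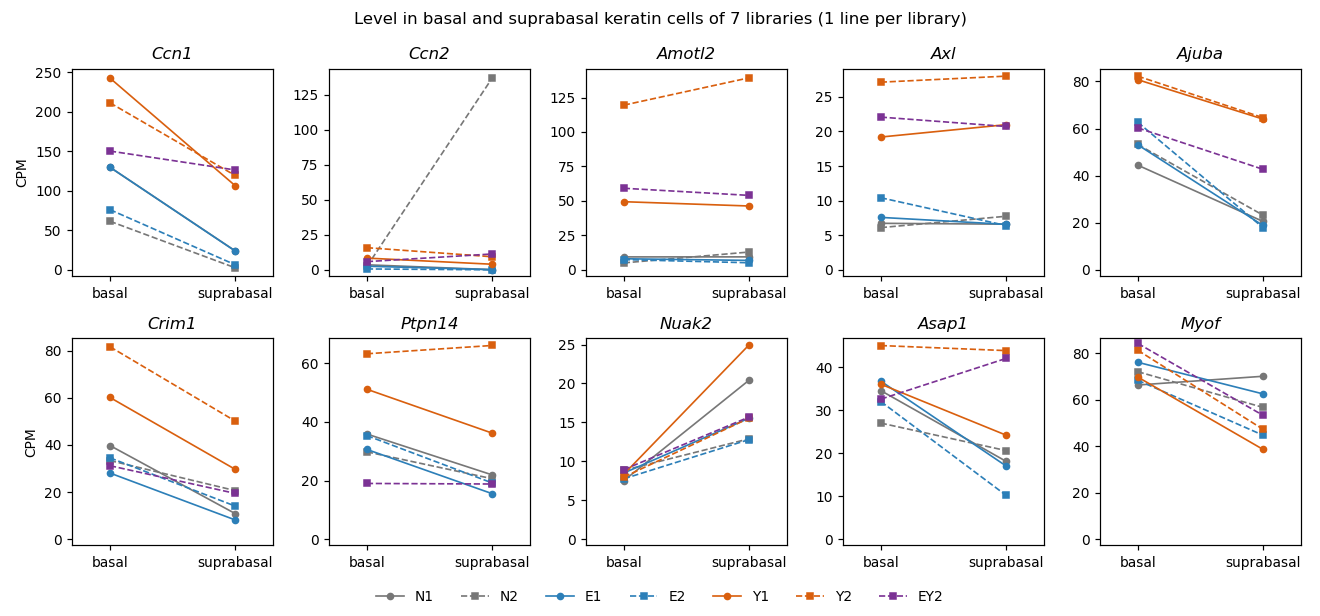
CPM in basal and suprabasal keratin cells, joined by 1 line per library (EY1, with 16 suprabasal keratin cells, is not drawn). Ccn1, Ajuba and Crim1 lines fall from basal to suprabasal, Nuak2 lines rise, and the Ccn2 line of N2 reaches 137 CPM in suprabasal keratin cells.

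Other genes of the pathway gave context. Of 22 further published YAP targets 21 were tested, and in the YAP effect 5 rose, 1 fell and 15 did not pass, with a median of 0.47. Over all genes 5.26% rose and 3.72% fell, with a median of -0.03. F3, tissue factor, rose 10.7-fold (adjusted p = 0.00202) and Edn1, the vasoconstrictor endothelin-1, 16.1-fold (adjusted p = 0.00311). The LATS kinase gene Lats2 rose 2.89-fold (adjusted p = 0.00288), Tead4 5.27-fold (adjusted p = 0.00430), and Dock5 also rose. Fstl1 fell, on 86 UMIs in all 8 libraries. Ankrd1 was not tested for its low counts.

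Of 23 Hippo and TEAD genes 21 were tested and 4 rose, with none falling: Yap1, Tead1 (2.85-fold, adjusted p = 0.00311), the scaffold Wwc1 (2.56-fold, adjusted p = 0.0101) and the TEAD cofactor Vgll3 (adjusted p = 0.00233). Vgll3 stood at 0.0797 to 0.477 CPM without YAP, on 1 to 12 UMIs per library, and at 5.09 to 13.3 CPM with YAP. The median over this list was -0.08, against -0.03 over all genes, of which 5.26% rose and 3.72% fell. Yap1 is counted among the 4 although it served above as the check of the YAP1S127A labels.

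The genes whose levels over the 8 libraries were most like the mean standardised level of the 10 targets were Flrt2 (r = 0.980), Stx3 (0.980), Otud1 (0.976), Paics (0.976) and Plb1 (0.975), the highest of 5085 genes at a mean of at least 20 CPM, with the 10 targets and the Hippo and TEAD list left out. These are Pearson correlations given as a description; the 8 points share depth and scaling. Flrt2 measured 5.42 to 9.65 CPM without YAP, 34.3 and 85.9 CPM in Y, and 29.3 and 26.2 CPM in EY, so that Y2 led here too.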

How the data were processed

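Cells from tongue epithelium were captured with the 10x Genomics droplet 3′ assay. The labels name the v2 kit, while the study's methods name v3.1. The authors deposited Cell Ranger (version 5.0.0 per the file headers) matrices of raw UMI counts per gene and cell, filtered to called cells, with mm10 named as the genome build. No doublet caller and no ambient RNA removal was applied here.

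The study's limits were used: cells were kept with between 1000 and 5500 genes, UMIs up to 30000 and a mitochondrial share of 7% or less. They were gated as stated in the report, and summed per library. Sums were compared with edgeR 4.0.16 in R 4.3.3 (filterByExpr, TMM, quasi-likelihood F test, Benjamini-Hochberg over all genes tested), with 1 mean per group or, for the YAP and E6-E7 effects, 1 term per transgene. The SE was obtained from the log2 fold change and the F statistic (their quotient after taking the root of F). A gene was called at adjusted p under 0.05. Scripts were tested on simulated data. There, comparisons of 2 groups recovered 5% to 9% of 2-fold and 71% to 76% of 4-fold changes. The YAP effect recovered 52% and 87%, and the E6-E7 effect 47% and 89%. The keratin class comparison recovered 49% and 90%, and its difference by YAP 1% and 25%. Shares of cells used a random draw of 2000 UMIs per cell. Alternatives were DESeq2 1.42.0, no filter on low counts, 6 other cell selections, and leaving out each library.

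The 10 genes and all gene lists were chosen with earlier results of these data known. Named genes were the 10 targets, Yap1, up to 4 called genes per list and direction with the smallest p (Dock5 was named beyond that rule), and the 5 genes most like the targets. Libraries are separate samples per the labels; with 2 per group, p-values measure the spread between these libraries only. Intervals cover counting error only.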

Additional observations from a re-analysis of the deposited data

Results flagged for a closer look

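The difference of Ccn1 between suprabasal and basal keratin cells was smaller in libraries with YAP1S127A than in those without, by 1.81 on the log2 scale, and this difference between the 2 sets of libraries passed its own test (adjusted p = 0.0337, edgeR), a call lost without N1, E2, Y2 or EY2 (adjusted p 0.0689 to 0.118). Suprabasal Ccn1 was 2.58 to 24.0 CPM in the 4 libraries without YAP and 106 to 126 CPM in Y1, Y2 and EY2. EY1, left out of the fit for its 16 suprabasal keratin cells, had 43.1 CPM on 6 UMIs. The values of N2 and E2 rested on 1 and 5 UMIs. Whether the keratin classes are the same layers in EY2, where other basal genes were low, was not tested.

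In immune cells, which the comparisons of the report do not use, Amotl2 was at least 2.06 CPM in every library with YAP (2.06, 3.53, 2.95 and 3.68 CPM in Y1, Y2, EY1 and EY2) and at most 0.673 CPM in every library without. Yap1 in the same cells was 5.51 to 12.6 CPM with and 0.269 to 1.73 CPM without YAP, and the summed epithelial markers there were 351 to 1163 CPM over all 8 libraries.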

How the results depend on the processing

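Amotl2 and Axl passed the YAP effect under all 16 alternatives, with log2 values of 2.85 to 3.396 and 1.49 to 1.76. The number of the 10 targets called depended on the settings elsewhere. In Y against N it was 2, and became 5 with DESeq2, 7 with no filter on low counts, 6 with no upper limits on cells, and 0 to 2 on leaving out 1 library. In EY against N it was 2, and became 4 with no upper limits, 4 with keratins at 2% of UMIs, and 0 to 2 on leaving out 1 library. In EY against Y it was 0, and became 2 with DESeq2, 3 with no filter, 1 with no upper limits, and 0 to 1 on leaving out 1 library. In E against N it was 0 and became 1 with no filter, in the E6-E7 effect 0 and became 2 with no filter, and in the YAP effect 5, becoming 8 with no upper limits and 2 to 5 on leaving out 1 library. Between keratin classes 4 to 6 of the targets were called on leaving out 1 library. For the difference of that contrast by YAP the count was 1, and 0 to 1 on leaving out 1 library. Without gland- or duct-like cells it was 3 (Ccn1, Ajuba and Ccn2), where Ccn2 reversed from -0.61 to 3.98 (adjusted p = 0.0449). Over all genes tested, no upper limits called 1504 of 14816 in Y against N and 6042 in EY against N. They called 669 in EY against Y and 6131 in the YAP effect. No filter called 1208 of 21743 in Y against N and 2117 in EY against Y, with 367 in E against N and 765 in the E6-E7 effect. DESeq2 called 457 of 13555 in Y against N and 873 in EY against Y. Keratins at 2% called 3347 of 12543 in EY against N. For keratin classes no such count is given here. The cause of these moves was not tested, except that a fit without 1 library has fewer samples.

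Over all targets and comparisons, 1186 of 1280 values kept their status, which for most of them was not being called. A call was lost in 49 values and gained in 44, and 1 reversed. Only a called result can lose its call, so the 49 are not to be read as a share of the 1280. Of the values that stayed uncalled, 82 had the other sign. Counts over all genes moved more than 1.5 times as well. Y against N called 62 genes, 457 with DESeq2, 1208 with no filter, 1504 with no upper limits, 198 with keratins at 2%, 160 without other cell type markers, 35 in basal keratin cells and 113 without gland- or duct-like cells. EY against N called 2550, and 4273 and 6042 with no filter and no upper limits. EY against Y called 6, and 873, 2117, 669, 163, 1046, 61, 11 and 56 with DESeq2, no filter, no upper limits, at least 200 genes, keratins at 2%, no other markers, basal keratin cells and no gland- or duct-like cells. E against N called 33, and 131, 367 and 66 with DESeq2, no filter and no upper limits. The YAP effect called 1217, and 2762, 3250 and 6131 with these 3. The E6-E7 effect called 55, and 293, 765, 36, 99 and 20 with these 3, keratins at 2% and no other markers. The interaction called 0, and 89, 672 and 20 with these 3. On leaving out 1 library the counts ran from 0 to 98, 5 to 4061, 0 to 1456, 0 to 29, 324 to 1707, 1 to 36 and 0 to 30 in this order of comparisons.

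Thinning to 1000 instead of 2000 UMIs moved the log2 ratio of the mean share of cells with YAP to that without by less than the spread within groups, except for Amotl2, from 2.82 to 3.36; at 1000 UMIs the Ccn1 shares with and without YAP overlapped. No paired analysis was possible because the labels give animal numbers that no groups share. Depth limits EY1 most, with 170 epithelial cells.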
